A study of Homo sapiens with 8 samples.

Results

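The genes of sterol and fatty acid synthesis were examined across sublines of KYSE30 and KYSE180, established lines of human esophageal squamous cell carcinoma. The set holds 34 genes chosen by name: the enzymes that build cholesterol, the sensors and transcription factors that set their level, genes of sterol transport and export, and the enzymes that make, lengthen and desaturate fatty acids. A gene was measured if a probe set of the array names that gene and no other in the platform annotation, and the probe set with the highest mean over the 8 arrays stood for it. By that rule 32 of the 34 genes had a value, from 79 probe sets, and all 32 passed the filter on dim probe sets, among 14180 of 19775 genes that did so over the whole array. FADS1 and FDFT1 had no probe set of their own, so no value is given for either.

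Both lines were selected 4 times in transwell chambers, where a porous membrane parts the cells that migrate from those that stay. The groups 30D and 180D are the cells that came through it, labelled as the more motile ones, and 30U and 180U are the cells left behind. Each group had 2 arrays. All 4 groups had been through the selection, no array of unselected cells was analysed here, and RNA was taken 2 passages after harvest, so the values describe cultured sublines and not cells in the act of crossing. The 8 sublines came from 4 separate parental populations, each of which gave 1 U and 1 D subline, so replicates differ by population as well as by array. The comparison asks how the more motile and less motile sublines of each line differ, and whether the lines differ in the same way.

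Cells sense their sterol content in the membrane of the endoplasmic reticulum. When sterol is low, SCAP carries the precursors of the SREBP transcription factors, encoded by SREBF1 and SREBF2, to the Golgi, where they are cleaved and released to switch on the genes of cholesterol and fatty acid synthesis. When sterol is plentiful, the INSIG proteins hold SCAP back, and oxysterols activate the LXR receptors, which switch on export pumps such as ABCA1 and ABCG1. INSIG1 is itself a target of SREBP, so its transcript is widely used as a readout of the pathway.

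Median values of the 8 arrays lay between 5.02 and 5.04 on the log2 scale. Array 180D replicate 1 stood apart in its control probes: its 3′ minus 5′ difference for ACTB was 1.92 where the rest read 1.06 to 1.42, and its 18S control was 11.20 where the rest read 12.15 to 12.50. Of 10 squamous epithelial markers, 7 were measured. CDH1 (11.65 to 11.85) and EPCAM (12.27 to 12.65) were high on all arrays, while the squamous keratins KRT14 and KRT5, at 13.34 to 13.64 and 12.17 to 12.36 in KYSE180, lay between 3.45 and 4.27 and between 4.48 and 4.85 in KYSE30, near or below the filter value of 4.46. SOX2, a squamous lineage factor, read 9.79 and 9.81 in 30U, 7.85 and 7.88 in 30D and 11.61 to 11.70 in KYSE180. The desmosomal cadherin DSC3 read 6.89 and 6.74 in 30U, 5.56 and 5.51 in 30D and 10.20 to 10.56 in KYSE180, and DSG3 7.05 to 7.19 in KYSE30 and 10.37 to 10.81 in KYSE180. KRT14, KRT5, SOX2, DSC3, DSG3 and EPCAM were thus lower in KYSE30 than in KYSE180, while the lines overlapped for CDH1. Within KYSE30, SOX2, DSC3 and EPCAM were lower in 30D than in 30U, and CDH1, KRT14 and KRT5 were higher. On every array 3 of 6 fibroblast markers, 3 of 4 immune markers, 2 of 3 adipocyte markers and 1 of 3 hepatocyte markers were below that value. Above it on every array were COL1A1, DCN, PDGFRB, PLIN1 and TTR, while CD3E and APOA1 lay on both sides. COL1A1 was lower in 30D and higher in 180D. It read 7.05 and 6.99 in 30U, 6.56 and 6.71 in 30D, 7.32 and 7.19 in 180U, and 7.99 and 7.68 in 180D. DCN read 4.69 to 5.25 and PDGFRB 5.15 to 5.38 over all arrays. Summed over the fibroblast markers the level was 27.06 to 27.36 in 30U, 26.79 to 27.27 in 30D, 27.11 to 27.87 in 180U and 28.58 to 28.74 in 180D. Over the endothelial markers it was 15.08 to 15.56, 14.88 to 14.95, 14.42 and 14.02 to 14.04 in the same order. Of these, CDH5 was 4.65 and 4.77 in 30U, 4.34 and 4.29 in 30D, and 3.17 to 3.53 in KYSE180. VWF went the other way between the lines, 4.73 to 5.02 in KYSE30 and 5.03 to 5.20 in KYSE180. PECAM1 read 5.61 to 5.80 over all arrays. The part of these markers in the results was not tested.

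In KYSE30 most of these genes were lower in the sublines that crossed the membrane. Of the 32 genes, 19 fell from 30U to 30D and 2 rose, where over all genes tested 8.12% fell and 8.42% rose. The squamous markers went both ways on the same arrays. SOX2, DSC3 and EPCAM (12.47 and 12.51 in 30U, 12.27 and 12.37 in 30D) were lower in 30D. CDH1 was higher in 30D (11.65 and 11.68 in 30U, 11.82 and 11.85 in 30D), and the groups overlapped for DSG3. KRT14 and KRT5 were higher in 30D, at levels near or below the filter value. The part of these markers in the KYSE30 changes was not tested. The median change of the 32 genes was -0.24 on the log2 scale, against 0.01 over all genes. Sterol synthesis steps and fatty acid steps had the same median change, -0.24, with 10 of 16 sterol steps and 4 of 6 fatty acid steps lower. The largest falls were those of INSIG1 (2.10-fold), FASN (1.88-fold), and HMGCS1, SREBF1 and ABCA1 (each 1.53-fold). In bulk RNA, less RNA per cell and fewer cells with the transcript cannot be told apart.

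In KYSE180 fewer of these genes changed, and 6 of the 8 that did went the other way. From 180U to 180D, 6 rose and 2 fell, where over all genes 2.55% rose and 1.21% fell. The median change was 0.16, against 0.02 over all genes. ACAT2, HMGCS1, IDI1, INSIG1, STARD4 and SCD rose, and MYLIP and ELOVL6 fell. With the parental population as a block, 7 of these 8 genes did not pass and INSIG1 did (limma adjusted p = 0.0235). With the mean of all probe sets of a gene, 3 members rose and 3 fell, and the median change was 0.08. With the arrays centred on their medians 3 members rose and 2 fell, and the balance of all genes called moved from 361 higher and 171 lower to 269 higher and 236 lower.

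The number of members called depended on single arrays, as did the number called over all genes. Leaving out an array leaves a single array in its group. In KYSE30 the count of genes that fell was 9 without 30U replicate 1, 8 without 30U replicate 2, and 9 without 30D replicate 1 or without 30D replicate 2, and the count that rose was 1, 0, 0 and 0. Over these omissions the median change of the 32 genes stayed between -0.25 and -0.24. In KYSE180 the 6 genes that rose became 2 without any 1 of the 30U and 30D arrays, which lend their spread to the test, and 1 on leaving out either 180U array or 180D replicate 1. The 2 genes that fell became 1 without 30U replicate 1 or replicate 2, and 0 on leaving out either 30D array, either 180U array or 180D replicate 1. Without 180D replicate 2, replicate 1 stood alone for its group. ACAT2, SCD and STARD4 then did not pass as higher, other members did, and the median change was 0.15. Without 180D replicate 1, the array whose control probes stood apart, the median change of the 32 genes in KYSE180 was 0.13.

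**Figure D1:**
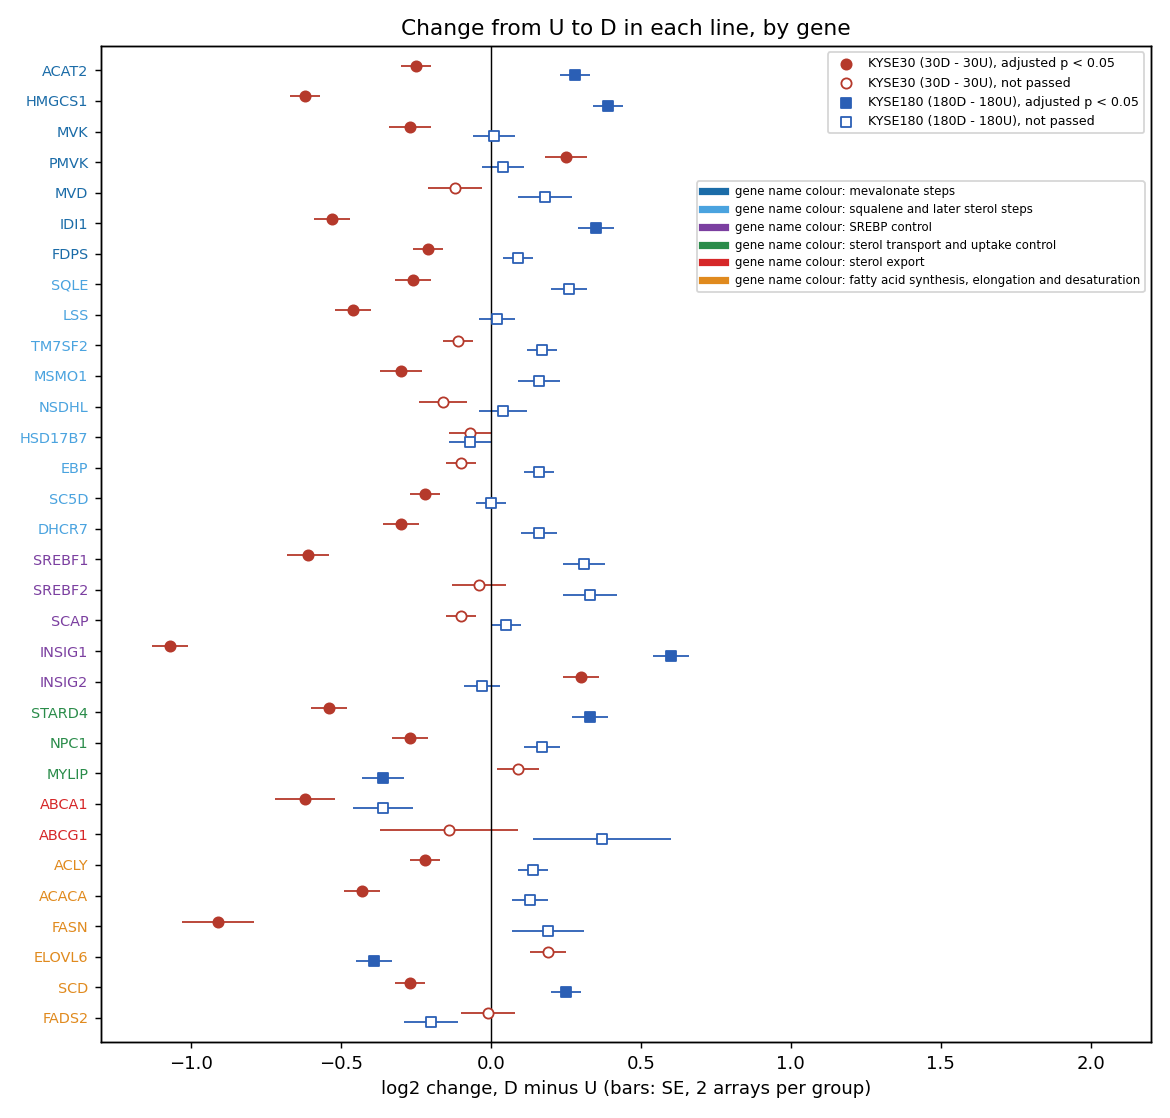
Change from U to D on the log2 scale (x axis) for each of the 32 genes (y axis), with circles for KYSE30 and squares for KYSE180. Bars are limma SE. For each gene they rest on 1 spread shared by all 4 groups, so they are equal in both lines. Filled symbols passed the adjusted p threshold of 0.05, and gene names are coloured by role. Most circles lie to the left of 0 and most squares to the right, with INSIG1 furthest out on both sides, at -1.07 and 0.60.

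The difference between the 2 changes was tested directly. The change was more positive in KYSE180 for 18 members and more negative for 3, where over all genes 6.94% and 5.21% passed in these directions. Its median over the 32 genes was 0.37, and 0.31 to 0.40 when single arrays were left out. Leaving out a KYSE30 array lowered the number of calls among the members and among all genes. Without the KYSE30 arrays in turn, the 18 became 10 (30U replicate 1), 9 (30U replicate 2), 9 (30D replicate 1) and 11 (30D replicate 2). The 3 became 1 without any KYSE30 array and without 180U replicate 1 or replicate 2. ACAT2, FASN, HMGCS1, IDI1, INSIG1, SCD, SREBF1 and STARD4 passed in the difference under all 15 alternatives.

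A group of 6 members fell in 30D and rose in 180D, a pattern found in 0.783% of all genes. No member showed the reverse pattern, which 0.282% of all genes showed. Without regard to a test, 24 of the 32 genes (75.0%) were below 0 in KYSE30 and above 0 in KYSE180, against 28.4% of all genes. The 24 include ABCG1, whose KYSE30 means lay below the filter value, so its sign in KYSE30 is not read. ABCG1 is also among the 32 genes in the correlations that follow. Across the 32 genes the 2 changes had a Pearson r of -0.52 and a Spearman rho of -0.50, against r = -0.07 across all genes tested. These are descriptions across genes, which are not independent replicates, and the 2 changes share no array.

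**Figure D2:**
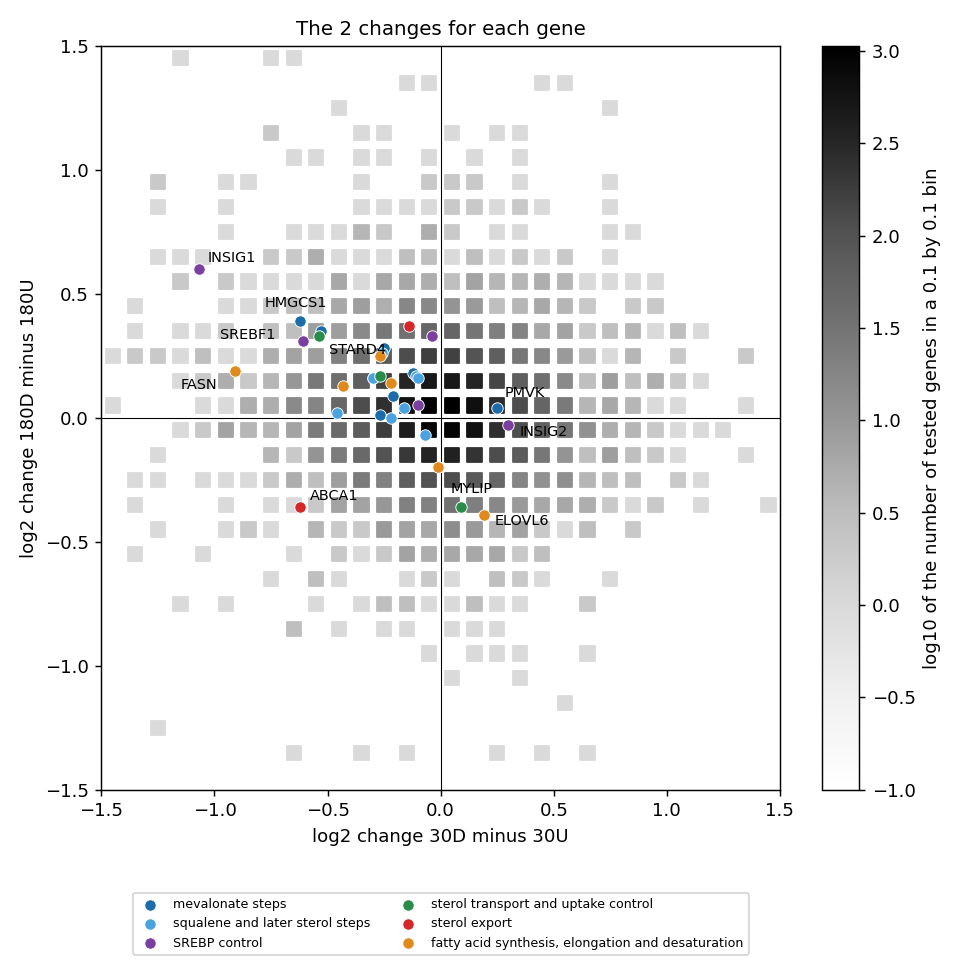
Change in KYSE30 (x axis, log2, 30D minus 30U) against change in KYSE180 (y axis, log2, 180D minus 180U), with the 32 genes as coloured points by role. Grey squares are bins of all tested genes, darker where more genes fall, and genes beyond the axes are not drawn. The coloured points gather at upper left, a field that holds 24 of the 32. ABCG1 is among them, with KYSE30 levels below the filter value.

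Starting with the regulators, INSIG1 read 10.54 and 10.42 in 30U, 9.39 and 9.43 in 30D, 8.25 and 8.17 in 180U, and 8.77 and 8.85 in 180D. INSIG1 retains SCAP in the endoplasmic reticulum. Its arrays fell into 4 separate ranges, in the order 30U, 30D, 180D, 180U. The fall in KYSE30 was -1.07 ± 0.06 (SE, limma adjusted p = 0.000139) and the rise in KYSE180 0.60 ± 0.06 (limma adjusted p = 0.00412). The difference of 1.67 ± 0.09 had a limma adjusted p of 0.000126. It was the only one of the 8 members called in KYSE180 that passed there under every alternative tried, with a change of 0.56 to 0.64 when single arrays were left out. Its other probe sets moved the same way, by -1.22 and -0.55 in KYSE30 and by 0.67 and 0.25 in KYSE180.

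INSIG2, the second protein that retains SCAP and not itself a target of SREBP, read 7.68 and 7.55 in 30U, 7.91 and 7.92 in 30D, 7.20 and 7.17 in 180U, and 7.18 and 7.12 in 180D. Both 30D arrays were above both 30U arrays, while the KYSE180 groups overlapped. The rise in KYSE30 was 0.30 ± 0.06 (limma adjusted p = 0.0167), opposite to INSIG1. In KYSE180 its change was -0.03, and the difference between the lines, -0.33 ± 0.09 (limma adjusted p = 0.0498), no longer passed with the population as a block (adjusted p = 0.104).

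SREBF1, which encodes the SREBP that favours fatty acid genes, read 9.96 and 10.04 in 30U and 9.40 and 9.38 in 30D. In KYSE180 it read 8.22 and 8.15 in 180U and 8.58 and 8.40 in 180D. The U and D arrays did not overlap in either line. It fell by 0.61 ± 0.07 in KYSE30 (limma adjusted p = 0.00262), and its KYSE180 change of 0.31 ± 0.07 did not pass (limma adjusted p = 0.0722). The difference of 0.92 ± 0.10 passed (limma adjusted p = 0.00266). A dimmer probe set of SREBF1 changed by -0.10 in KYSE30 and -0.14 in KYSE180.

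SREBF2, which encodes the SREBP that favours sterol genes, read 7.19 and 7.17 in 30U, 7.14 and 7.14 in 30D, 6.47 and 6.58 in 180U, and 7.0 and 6.72 in 180D. Its KYSE180 change of 0.33 ± 0.09 rested more on 180D replicate 1 than on replicate 2 and did not pass (limma adjusted p = 0.112). The change in KYSE30 was -0.04. SCAP, the escort of the SREBP precursors, changed by -0.10 in KYSE30 and 0.05 in KYSE180, and neither passed.

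**Figure D3:**
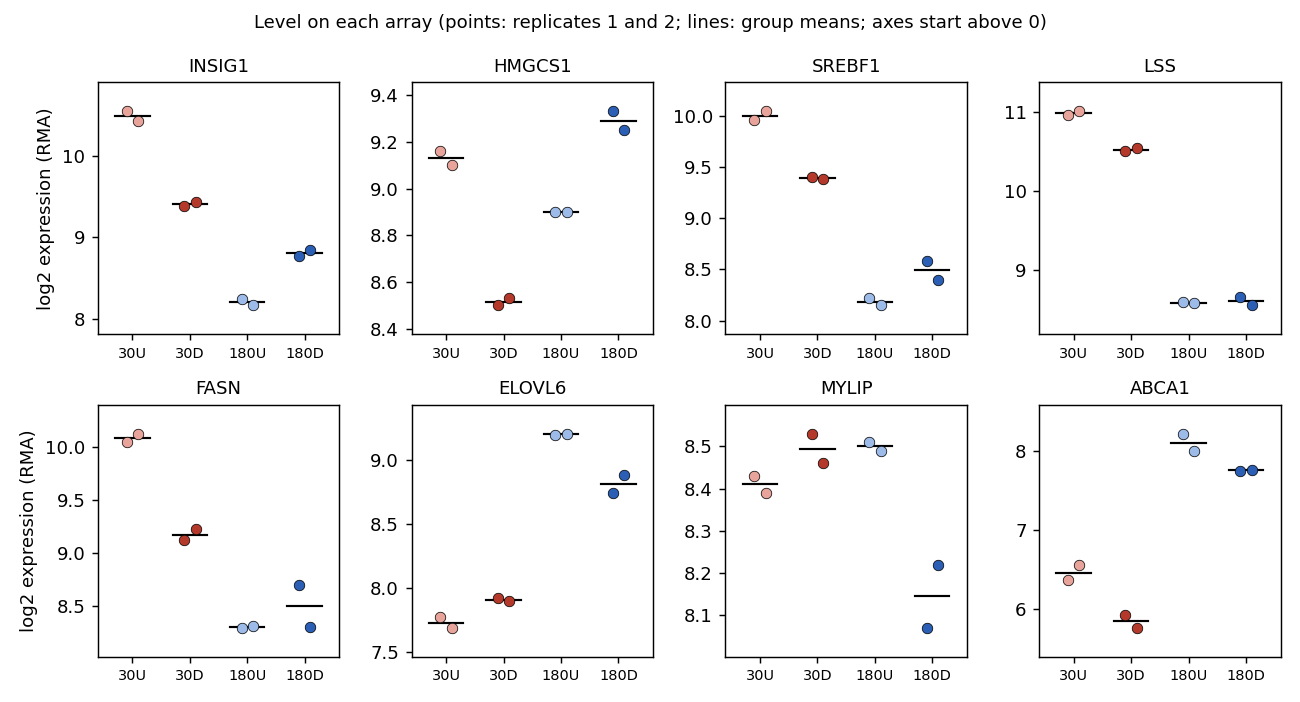
Level on each array (y axis, log2 RMA value; the axes do not start at 0) for 8 of the genes in the groups 30U, 30D, 180U and 180D (x axis), with 1 point per array and a line at the group mean. INSIG1 goes down from 30U (10.48) to 30D (9.41) and up from 180U (8.21) to 180D (8.81), HMGCS1 does the same, and the 180D arrays of FASN lie far apart, at 8.69 and 8.30.

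Among the 7 mevalonate steps, which turn acetyl-CoA into the isoprene units of sterols, 5 fell and 1 rose in KYSE30, and 3 rose in KYSE180. Over all genes 8.12% fell and 8.42% rose in KYSE30, and 2.55% rose in KYSE180. HMGCS1, which makes the substrate of the rate-limiting step, read 9.16 and 9.10 in 30U, 8.50 and 8.53 in 30D, 8.90 and 8.90 in 180U, and 9.33 and 9.25 in 180D. U and D arrays did not overlap in either line. Its changes were -0.62 ± 0.05 (limma adjusted p = 0.000746) and 0.39 ± 0.05 (limma adjusted p = 0.0114, and 0.0601 with the population as a block). A dimmer probe set gave -0.75 and 0.38 for the 2 changes but -0.75 for the difference between the lines over both fractions, where the probe set used gave 0.27, so only the changes within a line are read here.

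IDI1, which interconverts the isoprene units, read 10.99 and 10.97 in 30U, 10.44 and 10.46 in 30D, 9.43 and 9.48 in 180U, and 9.86 and 9.76 in 180D. It fell by 0.53 ± 0.06 in KYSE30 (limma adjusted p = 0.00168) and rose by 0.35 ± 0.06 in KYSE180 (limma adjusted p = 0.0211, and 0.0655 with the population as a block). The fractions of each line were again apart. Other probe sets of IDI1 changed by -0.47, -0.40 and -0.15 in KYSE30 and by 0.34, -0.10 and 0.30 in KYSE180. With the mean of all its probe sets the KYSE180 rise did not pass. ACAT2, a cytosolic thiolase at the head of the pathway, read 9.95 and 9.94 in 30U, 9.71 and 9.67 in 30D, 8.63 and 8.66 in 180U, and 8.91 and 8.94 in 180D. Its changes were nearly equal and opposite, -0.25 ± 0.05 (limma adjusted p = 0.0147) and 0.28 ± 0.05 (limma adjusted p = 0.0306, and 0.107 with the block). The difference for ACAT2 was 0.53 ± 0.07 (limma adjusted p = 0.00509).

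MVK, the mevalonate kinase, fell by 0.27 ± 0.07 in KYSE30 (limma adjusted p = 0.0360, and 0.079 with the block) and changed by 0.01 in KYSE180. One dim probe set of MVK changed by 0.07 in KYSE30. FDPS, which makes farnesyl diphosphate, fell by 0.21 ± 0.05 in KYSE30 (limma adjusted p = 0.0354, and 0.0786 with the block) and changed by 0.09 in KYSE180. PMVK, the next kinase after MVK, went against its neighbours in the pathway. It read 8.20 and 8.16 in 30U and 8.46 and 8.41 in 30D, a rise of 0.25 ± 0.07 (limma adjusted p = 0.0450, and 0.103 with the block), and its KYSE180 groups overlapped. MVD, the decarboxylase after PMVK, changed by -0.12 and 0.18, and neither passed.

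Of the 9 measured steps from squalene on, which close and trim the sterol rings, 5 fell in KYSE30, where 8.12% of all genes fell. In KYSE180 limma passed 0 of the 9, with 4 higher and 0 lower at an unadjusted p under 0.05. Over all genes 2.55% rose and 1.21% fell there. LSS, which folds epoxidised squalene into lanosterol, read 10.97 and 11.01 in 30U, 10.51 and 10.54 in 30D, 8.59 and 8.58 in 180U, and 8.65 and 8.55 in 180D. It fell by 0.46 ± 0.06 in KYSE30 (limma adjusted p = 0.00275), while its KYSE180 groups overlapped with a change of 0.02. The difference of 0.48 ± 0.08 passed (limma adjusted p = 0.0109). SQLE, the epoxidase before it, read 10.17 and 10.17 in 30U, 9.91 and 9.91 in 30D, 9.08 and 9.05 in 180U, and 9.40 and 9.24 in 180D. Its changes of -0.26 ± 0.06 and 0.26 ± 0.06 were of equal size, of which the first passed (limma adjusted p = 0.0303, and 0.072 with the block) and the second did not (limma adjusted p = 0.081). Other probe sets of SQLE changed by -0.02, -0.27 and -0.40 in KYSE30 and by 0.18, 0.12 and -0.23 in KYSE180, from the brightest to the dimmest.

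DHCR7, the last reductase on the route to cholesterol, read 11.62 and 11.69 in 30U, 11.29 and 11.42 in 30D, 8.49 and 8.56 in 180U, and 8.69 and 8.67 in 180D. It fell by 0.30 ± 0.06 in KYSE30 (limma adjusted p = 0.0195), and the KYSE180 change of 0.16 did not pass. MSMO1, the methylsterol oxidase, also fell by 0.30 in KYSE30 (SE 0.07, limma adjusted p = 0.0307), and SC5D, a sterol desaturase, fell by 0.22 ± 0.05 (limma adjusted p = 0.0238, and 0.071 with the block). The changes of TM7SF2, NSDHL, HSD17B7 and EBP, which act between lanosterol and the late sterols, ran from -0.16 to -0.07 in KYSE30 and from -0.07 to 0.17 in KYSE180, and none passed. For TM7SF2 and EBP the difference between the changes did pass, at 0.28 ± 0.07 (limma adjusted p = 0.0438) and 0.26 ± 0.07 (limma adjusted p = 0.0487), but not with the block (0.109 and 0.116).

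Of the 3 genes of sterol transport and uptake control, 2 fell in KYSE30, and in KYSE180 1 rose and 1 fell. Over all genes 8.12% fell in KYSE30, and 2.55% rose and 1.21% fell in KYSE180. STARD4, a carrier of cholesterol between membranes and a target of SREBP, read 8.29 and 8.28 in 30U, 7.76 and 7.72 in 30D, 6.27 and 6.15 in 180U, and 6.49 and 6.60 in 180D. No U array overlapped a D array of its line. It fell by 0.54 ± 0.06 in KYSE30 (limma adjusted p = 0.00262) and rose by 0.33 ± 0.06 in KYSE180 (limma adjusted p = 0.0404, and 0.0707 with the block). NPC1, which moves cholesterol out of lysosomes, fell by 0.27 ± 0.06 in KYSE30 (limma adjusted p = 0.0245, and 0.054 with the block), and its KYSE180 change of 0.17 did not pass.

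MYLIP, the LXR-driven ubiquitin ligase that marks lipoprotein receptors for destruction, fell in KYSE180, where no sterol step fell. It read 8.51 and 8.49 in 180U and 8.07 and 8.22 in 180D, and 8.43, 8.39, 8.53 and 8.46 in 30U and 30D. Its KYSE180 change of -0.36 ± 0.07 passed (limma adjusted p = 0.0331) but not with the block (0.0747), and without 180D replicate 1 it was -0.28 (adjusted p = 0.112). The export pump ABCA1, another LXR target, read 6.37 and 6.56 in 30U, 5.93 and 5.77 in 30D, 8.21 and 7.99 in 180U, and 7.74 and 7.76 in 180D. Both D groups lay below their U groups without overlap. Its changes were -0.62 ± 0.10 in KYSE30 (limma adjusted p = 0.00715) and -0.36 ± 0.10 in KYSE180 (limma adjusted p = 0.108), and their difference of 0.26 did not pass (limma adjusted p = 0.269).

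Over both lines together, in the additive fit, ABCA1 was the 1 member that fell, where 0.317% of all genes fell. Limma passed 0 members as higher (1 at an unadjusted p under 0.05). Where the lines change in opposite ways, this fit counts the opposition as spread. With the group means averaged over both lines instead, 4 members and 529 of all genes were lower. The additive fit gave 45 of all genes. The change of ABCA1 was -0.49 ± 0.08 (limma adjusted p = 0.0444), and with the population as a block the adjusted p was 0.186. It did not pass when any 1 array other than 180U replicate 2 was left out, so the count of members that fell was then 0. ABCG1, the partner pump that loads high-density lipoprotein, had 30U and 30D values of 4.13, 4.48, 4.50 and 3.83, around the filter value. Its 180U arrays read 6.21 and 5.91 and its 180D arrays 6.33 and 6.53, and neither change passed.

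Among the 6 measured fatty acid genes, 4 fell in KYSE30, and in KYSE180 SCD rose and ELOVL6 fell. Over all genes 8.12% fell in KYSE30, and 2.55% rose and 1.21% fell in KYSE180. FASN, the synthase that builds palmitate, read 10.04 and 10.12 in 30U, 9.12 and 9.22 in 30D, 8.29 and 8.31 in 180U, and 8.69 and 8.30 in 180D. It fell by 0.91 ± 0.12 in KYSE30 (limma adjusted p = 0.00328). In KYSE180 only 180D replicate 1 stood above the 180U arrays, and the change of 0.19 ± 0.12 did not pass (limma adjusted p = 0.416). A much dimmer probe set of FASN changed by -0.14 in KYSE30 and -0.20 in KYSE180. ACACA, which supplies malonyl-CoA to FASN, read 9.43 and 9.47 in 30U and 9.04 and 9.0 in 30D, a fall of 0.43 ± 0.06 (limma adjusted p = 0.00396). One further ACACA probe set changed by 0.04 in KYSE30.

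ACLY, which makes cytosolic acetyl-CoA for both branches, fell by 0.22 ± 0.05 in KYSE30 (limma adjusted p = 0.0315, and 0.075 with the block) and changed by 0.14 in KYSE180. SCD, the desaturase that makes oleate, read 12.64 and 12.61 in 30U, 12.35 and 12.36 in 30D, 11.15 and 11.18 in 180U, and 11.41 and 11.42 in 180D. U and D did not overlap in either line. Its changes were -0.27 ± 0.05 (limma adjusted p = 0.0114) and 0.25 ± 0.05 (limma adjusted p = 0.0382, and 0.118 with the block). Other probe sets of SCD changed by -0.40, -0.33 and -0.36 in KYSE30 but by 0.06, 0.13 and -0.04 in KYSE180.

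ELOVL6, which lengthens the palmitate made by FASN, fell in KYSE180, where SCD rose. It read 7.77 and 7.69 in 30U, 7.92 and 7.90 in 30D, 9.19 and 9.20 in 180U, and 8.74 and 8.88 in 180D. The D arrays were above the U arrays in KYSE30 and below them in KYSE180. The fall of 0.39 ± 0.06 in KYSE180 passed (limma adjusted p = 0.0227, and 0.0706 with the block), the change of 0.19 ± 0.06 in KYSE30 did not (limma adjusted p = 0.0924), and the difference of -0.57 ± 0.09 passed (limma adjusted p = 0.00888). Its other probe sets past the filter changed by -0.13 and -0.32 in KYSE30 and by -0.42 and -0.07 in KYSE180, so the sign in KYSE30 depended on the probe set. With the mean of all its probe sets the difference was -0.21 and did not pass (limma adjusted p = 0.145). FADS2, which desaturates polyunsaturated fatty acids, changed by -0.01 and -0.20, and neither passed.

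Other probe sets of the members were compared with those used. For the 21 members called in KYSE30, 25 further probe sets of 14 genes passed the filter, and 23 of them changed in the same direction. That count takes in changes near 0, such as the -0.02 of a SQLE probe set. For the 8 called in KYSE180, 16 further probe sets of 6 genes passed the filter and 14 had the same sign. Of the 21 calls in KYSE30, 8 passed under all 16 alternatives: ACACA, FASN, HMGCS1, IDI1, INSIG1, LSS, SREBF1 and STARD4.

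More members differed between the lines than between the fractions of either line, and the same held over all genes. Of the members 87.5% were called between the lines, 65.6% between the KYSE30 fractions and 25.0% between the KYSE180 fractions. Over all genes the shares were 67.1%, 16.5% and 3.75%. The lines were compared with 4 arrays each, and the fractions of a line with 2 each. Between KYSE180 and KYSE30, over both fractions, 21 members were lower in KYSE180 and 7 higher, where over all genes 31.0% were lower and 36.1% higher. The median difference was -0.44, against 0.05 over all genes. Of the 16 sterol steps 13 were lower in KYSE180, with a median of -0.65, while the 6 fatty acid genes split into 2 lower and 2 higher, with a median of -0.03. ABCA1 and ABCG1 are among the 7 that were higher, ABCG1 against KYSE30 levels below the filter value.

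DHCR7 had the widest gap among the members, -2.91 ± 0.09 (SE, 4 arrays per line, limma adjusted p = 2.92e-08), which is 7.49-fold. LSS was 4.49-fold lower in KYSE180 (-2.17 ± 0.09, limma adjusted p = 1.66e-07). STARD4 differed by -1.63 ± 0.16 (limma adjusted p = 2.44e-05), MSMO1 by -1.47 ± 0.10 (limma adjusted p = 1.94e-06) and INSIG1 by -1.44 ± 0.30 (limma adjusted p = 0.00241). These SE are from the additive fit and take in any opposition between the U-to-D changes of the lines. Among the members that opposition was largest for INSIG1. The sterol steps higher in KYSE180 were SC5D (0.73 ± 0.06, limma adjusted p = 4.75e-06) and TM7SF2 (0.29 ± 0.06, limma adjusted p = 0.00328).

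ABCA1 was 3.41-fold higher in KYSE180 (1.77 ± 0.08, limma adjusted p = 2.43e-07). ABCG1 passed the filter through its KYSE180 arrays, and both its KYSE30 means, 4.30 and 4.17, lay below the filter value. Measured from that value, it was at least 3.04-fold higher in KYSE180 among U (mean 6.06) and at least 3.92-fold higher among D (mean 6.43). These bounds depend on the probe set. Another ABCG1 probe set, with a mean of 5.18 against 5.24, read 2.41 to 3.31 in KYSE30 and 7.37 to 7.67 in KYSE180. Since ABCG1 passed the filter only through the line where it is high, its test between the lines is not read here. ELOVL6 (1.18 ± 0.11), FADS2 (0.81 ± 0.07) and SCAP (0.67 ± 0.05) were also higher in KYSE180, while FASN (-1.23 ± 0.21) and SCD (-1.20 ± 0.10) were lower. Of the 28 differences called between the lines, 25 passed under every alternative run, and MVD, MVK and EBP did not. ABCG1 is counted among the 28 and the 25, with the limit just given.

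**Figure D4:**
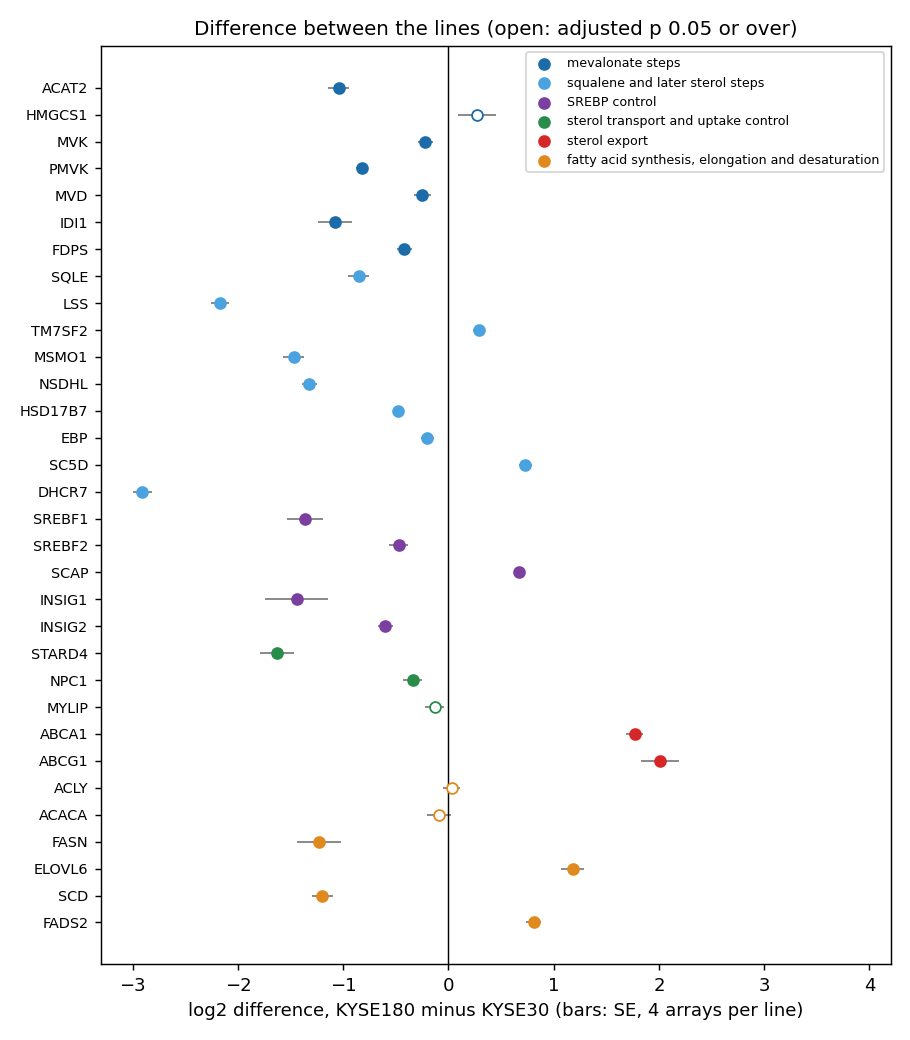
Difference between the lines over both fractions (x axis, log2, KYSE180 minus KYSE30) for each of the 32 genes (y axis), coloured by role. Bars are SE from the additive fit, with 4 arrays per line. Open symbols did not pass the adjusted p threshold of 0.05. Most sterol steps lie to the left, down to -2.91 for DHCR7, and ABCA1 lies to the right, at 1.77. The point of ABCG1 rests on KYSE30 levels below the filter value and is no estimate of size.

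For most members the lines lay closer among D than among U. The size of the gap between the lines was smaller among D than among U for 22 of the 32 genes (68.8%), against 49.9% of all genes. ABCG1, with KYSE30 means below the filter value, is among the 32 but not among the 22. The gap of INSIG1, KYSE180 minus KYSE30, went from -2.27 among U to -0.60 among D. Those of IDI1, FASN and SREBF1 went from -1.52 to -0.64, from -1.78 to -0.68 and from -1.82 to -0.90. DHCR7 and LSS still differed by -2.68 and -1.93 among D. For ABCA1 the gap was wider among D, 1.90 against 1.64. These gaps come from the same arrays as the changes and were not tested further.

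Other genes of the pathways were read from lists of related genes. Of 24 further sterol genes 19 were tested: 1 rose and 4 fell in KYSE30, and limma passed 0 in KYSE180, with 3 higher and 1 lower at an unadjusted p under 0.05. LPIN1, a phosphatidate phosphatase and target of SREBP, read 9.71 and 9.71 in 30U and 9.15 and 9.11 in 30D. It fell by 0.58 ± 0.06 in KYSE30 (limma adjusted p = 0.00123) and changed by 0.02 in KYSE180. TMEM97, a sterol-regulated binder of NPC1, fell by 0.29 ± 0.06 in KYSE30 (limma adjusted p = 0.0163), changed by 0.23 in KYSE180 (limma adjusted p = 0.0856), and passed in the difference at 0.52 ± 0.08 (limma adjusted p = 0.00933). RNF139, a ubiquitin ligase of the endoplasmic reticulum, fell by 0.27 ± 0.05 in KYSE30 (limma adjusted p = 0.0118). MBTPS2, the protease that makes the final cut in SREBP, rose by 0.28 ± 0.06 in KYSE30 (limma adjusted p = 0.0159). In the difference, NPC2, which hands cholesterol to NPC1, passed at 0.41 ± 0.08 (limma adjusted p = 0.0161) and OSBPL9, an oxysterol-binding protein homologue, at 0.34 ± 0.07 (limma adjusted p = 0.023). The shares in KYSE30 were 26.3% of the 19 genes in either direction, against 16.5% of all genes.

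Of 32 further fatty acid and lipid genes 26 were tested, with a median change of 0.00 in KYSE30 and 0.01 in KYSE180. In KYSE30, 2 rose and 5 fell, 26.9% in either direction against 16.5% of all genes, and in KYSE180, 2 fell, 7.69% against 3.75%. The 2 that rose are FADS3, of the desaturase family, by 0.34 ± 0.06 (limma adjusted p = 0.00847), and ELOVL4, which makes very long chains, by 0.44 ± 0.10 (limma adjusted p = 0.0226); ELOVL4 is named after its value was seen. ME1, which makes NADPH for fatty acid synthesis, fell by 0.38 ± 0.05 in KYSE30 (limma adjusted p = 0.00449), MID1IP1, an activator of acetyl-CoA carboxylase, fell by 0.50 ± 0.08 (limma adjusted p = 0.00783), and ACSL4, which activates polyunsaturated fatty acids, fell by 0.58 ± 0.09 (limma adjusted p = 0.00626). In the difference, SLC25A1, the citrate carrier, passed at 0.52 ± 0.10 (limma adjusted p = 0.0195). FABP5, the epidermal fatty acid binding protein, fell by 0.42 ± 0.05 in KYSE180 (limma adjusted p = 0.00699) and changed by 0.03 in KYSE30. ACSL1, an acyl-CoA synthetase, fell in both lines, by 0.30 in KYSE30 and by 0.31 in KYSE180 (limma adjusted p = 0.0113 and 0.028).

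All 11 measured genes of a list of 13 LXR partners and targets were tested. In KYSE30, 1 rose and 3 fell, 36.4% in either direction against 16.5% of all genes, and in KYSE180, 1 fell, 9.09% against 3.75%. SMPDL3A, an LXR-driven phosphodiesterase, rose by 0.26 ± 0.06 in KYSE30 (limma adjusted p = 0.0245) and fell by 0.50 ± 0.06 in KYSE180 (limma adjusted p = 0.0053), opposite to INSIG1 in each line. LPCAT3, an LXR-driven enzyme of membrane phospholipids, fell by 0.25 ± 0.05 in KYSE30 (limma adjusted p = 0.0168), and RXRA, the partner of LXR, fell by 0.26 ± 0.05 (limma adjusted p = 0.0146). PLTP, the phospholipid transfer protein, is counted among the 3, but both its KYSE30 means, 4.40 and 4.07, lay below the filter value, so no change is read from it.

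The promoters of the members that moved together were read in the RefSeq table of GRCh38.p14, in windows from 250 bases before to 50 bases after the start, of which 38 matched 28 of the 32 genes by symbol. The stretches below are from members that fell in 30D and rose in 180D and hold a CCAAT box, the site of the factor NF-Y that often sits beside SREBP sites. ACAT2 has the same pattern, but no window matched it by symbol, so its promoter was not searched. Where a gene had several windows, the one with the most matches is shown. Each lies upstream of the start and is written 5′ to 3′ on the strand of the gene. Capitals mark the motif CCAAT on either strand, so that it reads CCAAT or ATTGG.
HMGCS1 chr5:43313478-43313597, minus strand: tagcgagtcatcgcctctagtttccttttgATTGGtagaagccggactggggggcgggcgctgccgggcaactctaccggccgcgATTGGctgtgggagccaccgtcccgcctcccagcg
IDI1 chr10:1048939-1049048, minus strand: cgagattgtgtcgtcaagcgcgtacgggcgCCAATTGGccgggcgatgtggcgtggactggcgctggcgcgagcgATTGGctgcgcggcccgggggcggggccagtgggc
INSIG1 chr7:155297678-155297742, plus strand: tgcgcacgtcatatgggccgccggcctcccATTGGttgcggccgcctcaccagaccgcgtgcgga
STARD4 chr5:111512631-111512726, minus strand: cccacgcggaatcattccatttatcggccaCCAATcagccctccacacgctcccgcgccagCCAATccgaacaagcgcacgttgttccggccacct
SCD chr10:100346983-100347081, plus strand: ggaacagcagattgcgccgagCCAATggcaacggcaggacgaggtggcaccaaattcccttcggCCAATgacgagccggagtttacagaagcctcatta

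SREBF2 was the only gene among the 28 whose window held the sterol regulatory element searched, TCACNCCAC, on either strand. Its stretch is shown with that element, at positions -133 to -125 relative to the start, and the CCAAT box after it in capitals.
SREBF2 chr22:41832942-41833033, plus strand: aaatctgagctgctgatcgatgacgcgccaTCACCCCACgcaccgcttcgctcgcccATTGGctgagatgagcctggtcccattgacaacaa
The element was in 2.63% of the 38 windows, 1.13% of all 35116 windows in the table and 1.03% of the 16343 windows of tested genes.

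CCAAT was in 25 of the 38 windows (65.8%), of 21 genes, against 34.6% of all windows and 34.4% of those of tested genes. The GC box GGGCGG was in 89.5% of the members' windows, 45.0% of all windows and 63.6% of those of tested genes. The E-box CACGTG was in 15.8% against 7.26% and 9.17%. The LXR element, a pair of direct repeats with a spacer of any 4 bases, was in 0 of the 38 windows and in 0.0199% of all. Both strands were searched for each motif, and motifs that share bases were each counted, as in IDI1, where CCAATTGG holds the CCAAT box on both strands. Several windows of 1 gene can overlap, so windows are not independent. A match describes letters in a window and is not evidence that a factor binds there.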

How the data were processed

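RNA from 8 sublines was hybridised to Affymetrix human genome arrays. The deposited values are log2 expression made by the authors with RMA (background correction, normalization between arrays and summary of probes per probe set), per the submitters' processing notes, with no version recorded there. RMA equalises the arrays' distributions and compresses dim signals, so it understates the fold changes of dim genes. Values ran from 1.44 to 14.01. Array numbers limit the precision.

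Of 54675 probe sets, 41091 carried 1 gene symbol in the platform annotation, 1801 several, 11721 none, with 62 controls. A RefSeq table of GRCh38.p14 brought symbols up to date by Entrez ID for 41037. The brightest probe set on average stood for a gene. Genes whose mean lay below the 40th percentile (log2 4.46) were left out; that value stands in for background and is not a detection call.

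Two-sided tests were made with limma 3.58.1 under R 4.3.3 (lmFit, then eBayes), Benjamini-Hochberg adjustment over 14180 genes and a threshold of 0.05. A fit of 4 group means over all 8 arrays gave the changes within lines and their difference. An additive fit of cell line and fraction gave the rest. "Rose" and "fell" mean past that threshold. The script was first tested on simulated data.

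The labels pair each D subline with the U subline of its parental population. In KYSE180 this crosses the replicate numbers, and the populations were used. Deviations from group means correlated at -0.0228 (KYSE30) and 0.0203 (KYSE180) between partners. Alternatives were other filters, scalings and probe set rules, an intensity trend, the population as a block, and leaving out each array. Members, roles and lists were chosen with earlier results of these data known, so lists are described by counts and medians and not tested. Named genes are all members and, of each other list, up to 4 per comparison with the smallest p among those past the threshold. MicroRNA arrays were not analysed here.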

Additional observations from a re-analysis of the deposited data

Results flagged for a closer look

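A direct test of the difference between the lines in their U-to-D change (limma, adjusted over all genes tested) passed for 21 members. The values below are log2 differences, KYSE180 minus KYSE30. Among regulators and transport genes they were 1.67 for INSIG1, 0.92 for SREBF1, 0.87 for STARD4, 0.44 for NPC1, -0.33 for INSIG2 and -0.44 for MYLIP. Among sterol steps they were 1.01 for HMGCS1, 0.88 for IDI1, 0.53 for ACAT2, 0.52 for SQLE, 0.48 for LSS, 0.46 for MSMO1, 0.46 for DHCR7, 0.31 for FDPS, 0.28 for TM7SF2 and 0.26 for EBP. Among fatty acid genes they were 1.10 for FASN, 0.56 for ACACA, 0.52 for SCD, 0.36 for ACLY and -0.57 for ELOVL6. With the parental population as a block the adjusted p of ACLY (0.0649), EBP (0.116), FDPS (0.0929), INSIG2 (0.104), NPC1 (0.0501) and TM7SF2 (0.109) was above the threshold.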

How the results depend on the processing

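No value of a member changed sign past the threshold under any alternative run. The replicate block on the parental population (not fitted to the difference between the lines, since a population belongs to 1 line) left 1 member higher and 13 lower in KYSE30, 1 higher and 0 lower in KYSE180, 13 higher and 2 lower in the difference, and 0 lower over both lines. Over all genes it gave 230 calls in KYSE180 (532 without it), 1011 in the difference (1723) and 0 over both lines (124). Without the filter on dim probe sets, members numbered 1 higher and 12 lower in KYSE30, 3 and 1 in KYSE180, 1 lower in the difference and 0 over both lines, with 311 and 1142 calls over all genes in KYSE180 and the difference. With arrays centred on their medians 1 member rose in KYSE30 and 3 in KYSE180. An intensity trend gave 10 members higher in KYSE180 and 1069, 2700 and 195 calls over all genes in KYSE180, the difference and both lines. The mean of all probe sets gave 3 members higher and 3 lower in KYSE180, with a median of 0.08 (0.16 with the brightest probe set), and the 4 arrays of that line alone 1 higher, 0 lower and 195 calls. Averaging group means over both lines gave 4 members lower and 1281 calls. When single arrays were left out, members higher ranged over 0 to 2 (KYSE30), 1 to 7 (KYSE180) and 9 to 16 (difference), and members lower over 8 to 19, 0 to 2 and 1 to 2, and 0 to 1 over both lines. Calls over all genes then ranged from 834 to 2553 in KYSE30, 209 to 502 in KYSE180, 727 to 1702 in the difference and 16 to 77 over both lines. With 2 arrays a group, small changes could not be told from the spread.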
